A study of Mus musculus with 34 samples.

Results

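Imprinted genes are expressed from only 1 of the parental copies, and 40 of them were looked up in a CpG island array study of mouse tissues and embryonic stem (ES) cells. Probes whose gene name, current or older, was that of an imprinted gene were grouped into islands, runs of at least 3 probes with gaps of at most 500 bases. This gave 37 islands of 27 genes, carrying 303 probes, out of 13659 islands on the array. No probe carried the names of 11 of the 40 genes (H19, Snrpn, Magel2, Sgce, Kcnq1ot1, Slc22a18, Nespas, Peg13, Meg3, Rtl1 and Airn). Usp29 had 1 probe, too few for an island, and Impact had 3 probes of which an outlier spot on 1 array prevented a score on every array.

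At an imprinted cluster the 2 parental copies carry different DNA methylation. A germline mark is laid down in the egg or sperm and is kept after fertilisation, when most other methylation of the early embryo is lost and rebuilt. The zinc finger protein ZFP57 with its cofactor TRIM28 recruits the maintenance methyltransferase to such marks. Later, or somatic, marks are added after implantation at nearby promoters and depend on the germline mark of the cluster. In normal tissue 1 copy of such an island is methylated and the other is not, and culture of ES cells is known to disturb these marks.

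From this textbook knowledge, and with earlier results of these data known, the 37 islands were sorted by mark. There were 15 at germline marks (127 probes, 3 to 21 per island), 7 at later marks (53 probes) and 15 others (123 probes). The others were mostly ordinary promoters of genes in the clusters. The egg is the textbook source of the mark at all 15 germline islands. The sperm-derived marks at H19 and Meg3 had no probe of those names, and the Rasgrf1 island was not placed at that gene's mark. Where a gene has several islands, the assignment rests on their order along the mouse genome build mm9, since neither the array nor the tables used here says which island lies in a promoter, exon or intron.

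The promoter sequences of a few of these genes show what the antibody used here can bind, which is methylated CpG. Each is a RefSeq window on build GRCm38.p6, from 250 bases before to 50 bases after the annotated start, read on the gene's strand with every CpG in capitals. The first 5 genes carry a germline mark and the last, Ascl2, does not.

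Peg3, chr7:6730370-6730669, minus strand: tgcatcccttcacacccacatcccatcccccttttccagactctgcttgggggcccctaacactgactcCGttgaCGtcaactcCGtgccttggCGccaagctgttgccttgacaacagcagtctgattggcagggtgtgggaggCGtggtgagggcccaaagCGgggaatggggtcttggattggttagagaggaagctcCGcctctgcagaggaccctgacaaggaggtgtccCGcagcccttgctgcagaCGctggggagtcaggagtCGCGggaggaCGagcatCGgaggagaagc
Mest, chr6:30737800-30738099, plus strand: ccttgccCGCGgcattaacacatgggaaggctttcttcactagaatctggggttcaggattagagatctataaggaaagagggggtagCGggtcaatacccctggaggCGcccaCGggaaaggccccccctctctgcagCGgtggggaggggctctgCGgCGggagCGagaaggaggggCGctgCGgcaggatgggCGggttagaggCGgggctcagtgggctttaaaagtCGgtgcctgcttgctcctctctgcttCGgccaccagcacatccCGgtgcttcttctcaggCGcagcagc
Plagl1, chr10:13090582-13090881, plus strand: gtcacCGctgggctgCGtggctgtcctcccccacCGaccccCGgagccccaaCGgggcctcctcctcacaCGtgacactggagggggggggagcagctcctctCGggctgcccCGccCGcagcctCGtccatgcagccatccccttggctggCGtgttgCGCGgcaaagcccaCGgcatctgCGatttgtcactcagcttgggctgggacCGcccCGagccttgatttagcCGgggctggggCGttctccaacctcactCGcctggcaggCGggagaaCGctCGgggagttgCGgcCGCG
Mcts2, chr2:152686898-152687197, plus strand: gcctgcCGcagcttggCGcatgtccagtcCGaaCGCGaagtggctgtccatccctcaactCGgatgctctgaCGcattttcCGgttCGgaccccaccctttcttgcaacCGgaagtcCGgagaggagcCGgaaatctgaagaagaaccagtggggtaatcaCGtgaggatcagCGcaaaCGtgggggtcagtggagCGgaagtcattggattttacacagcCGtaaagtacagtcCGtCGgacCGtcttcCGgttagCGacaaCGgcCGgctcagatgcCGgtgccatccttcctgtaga
Nap1l5, chr6:58907077-58907376, minus strand: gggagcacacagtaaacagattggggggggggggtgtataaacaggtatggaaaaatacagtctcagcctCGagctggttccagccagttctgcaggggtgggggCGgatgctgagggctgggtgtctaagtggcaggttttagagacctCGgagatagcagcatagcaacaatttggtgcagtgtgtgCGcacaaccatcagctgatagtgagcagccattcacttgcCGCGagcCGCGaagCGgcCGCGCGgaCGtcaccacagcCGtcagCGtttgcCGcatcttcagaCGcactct
Ascl2, chr7:142969215-142969514, minus strand: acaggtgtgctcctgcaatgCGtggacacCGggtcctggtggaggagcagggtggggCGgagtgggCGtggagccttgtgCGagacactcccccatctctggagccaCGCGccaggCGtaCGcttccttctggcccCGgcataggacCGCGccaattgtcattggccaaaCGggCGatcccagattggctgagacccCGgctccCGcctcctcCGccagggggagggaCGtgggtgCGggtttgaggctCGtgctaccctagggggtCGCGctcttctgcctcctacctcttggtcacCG

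These windows held 13 (Peg3), 17 (Mest), 26 (Plagl1), 25 (Mcts2), 17 (Nap1l5) and 23 (Ascl2) CpG in 300 bases. Over the 48 windows kept for 31 of the imprinted genes the median was 14.5, against 7 over all 32851 RefSeq windows of that length. Windows on the chromosome of Impact were left out of the 48 but not out of all windows. Overlapping windows of 1 gene were each counted, such as 2 of Mest that both hold the hexamer described next. The hexamer TGCCGC on either strand, the sequence that ZFP57 binds when its CpG is methylated, was present in 12 of the 48 windows (25.0%) and in 11.6% of all windows. It occurred 2 times in each of the Mest and Nap1l5 windows, 1 time in each of the Plagl1 and Mcts2 windows, and was not found in the Peg3 and Ascl2 windows. The printed windows are examples, and the others did not divide by mark in this way. The Zim1 window and 1 window each of Commd1 and Igf2 held it, though their islands were not placed at germline marks. No window of Zrsr1, Kcnq1ot1, Airn or Gnas held it. The hexamer itself holds a CpG, and its shares were not adjusted for the higher CpG count of the imprinted windows. The windows and the array islands are on different genome builds and were not joined, so a match is a description of the sequence alone.

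DNA was sonicated, single strands bound by an antibody against 5-methylcytidine were recovered (mDIP), and bound and input DNA were hybridised together to 34 Agilent arrays. There were 16 arrays of adult tissue from mice of 3 months, 2 each of colon, pancreas, brain, kidney, liver, lung, muscle and spleen, and 5 of whole embryos, 1 each from day 8.5, 9.5, 10.5, 11.5 and 12.5. Undifferentiated ES cells gave 3 arrays, 1 each of the lines EB5, J1 and TT2, and differentiated ES cells gave 5: embryoid bodies and retinoic acid treated cells labelled as TT2, and 2 of endoderm and 1 of mesoderm from EB5. The remaining arrays were 2 teratomas labelled as grown from J1, 1 of purified pancreatic β cells, and 1 each of the β cell line Min6 and the α cell line aTC.

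The study's methods name C57Bl/6 for all mouse DNA and give no separate strain for each ES line. The β cells were sorted from islets of mice with a Pdx1-GFP transgene. Endoderm and mesoderm came from a reporter line made from EB5 by gene targeting, and were sorted after culture with Activin A. Whether the EB5 array held that line or its parent is not stated. Teratomas were grown under the skin of NOD-SCID mice, so they can hold host cells. For the retinoic acid treated cells the labels and a legend of the study name TT2 as the parent line and its methods J1, and for the teratomas the labels name J1 and the methods D3 and C4. Nothing states that arrays of a group came from separate animals or cultures, apart from the tissues whose 2 arrays differ in sex, so p-values measure the spread between arrays and classes of ES cells mix lines and protocols. No gene expression was measured, so a tissue cannot be checked against its marker transcripts.

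Each island was given a score, the mean over its probes of the log ratio of bound to input DNA after that ratio was standardised to mean 0 and SD 1 on each array. A score is thus in SD of an array's probes, and scores are compared below between arrays at the same island. Because mDIP does not separate the parental copies, a lower score cannot tell a loss on the marked copy in every cell from a loss in some cells. Input signal at the probes was 3.07 to 7.34 times background over the 34 arrays and bound signal 1.54 to 5.59 times.

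The array labelled J1 stood apart from the other ES cells. Over all 13659 islands its scores correlated with pancreas 2 at r = 0.963, the third highest of 561 array pairs, with TT2 at 0.803 and with EB5 at 0.79, while EB5 and TT2 correlated at 0.881. The 2 arrays of pancreas correlated with each other at 0.935. In the authors' processed table the J1 column correlated with the same array's scanner values at 0.113, where the other 33 columns gave 0.894 or more. Results that rest on undifferentiated ES cells are therefore given with and without it. Its gap to EB5 and TT2 also enters the spread that the fit shares with the comparisons of embryos and of differentiated cells with adult tissue. Those comparisons were run without it only in tests of the 2 classes alone. The embryos of day 8.5 and 9.5, labelled male, had mean scores of 1.05 and 1.18 over X-linked islands, where the 8 arrays labelled female had 0.92 to 1.88 and the other male arrays 0.15 to 0.29. No imprinted island lies on the X chromosome.

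In adult tissue the scores differed by the kind of island. The sorting used the knowledge that a germline mark is methylated on 1 copy in normal tissue, and earlier results of these data were known. The split is therefore a description and not a test. Of the 37 islands, 19 (51.4%) scored above 0.75 on every adult array, 3 (8.11%) scored below 0 on every one, and 15 (40.5%) did neither, against 7.42%, 30.5% and 62.0% of all islands. All 15 germline-mark islands were above 0.75 on all 16 arrays, with single values from 1.53 to 3.57. With normexp 9 of the 15 were, and all 15 were above 0. Among the later marks, Dlk1 island 2, Gnas island 1, Peg12 and Cdkn1c were above 0.75 on every adult array, whereas Igf2r island 2, Ndn and Mkrn3 had at least 1 array under it. None of the other 15 islands was above 0.75 throughout, and Ube3a, Ascl2 and Phlda2 were below 0 on every adult array.

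Differences between the 8 adult tissues did not pass the test. At the germline islands the means of the tissues spanned 0.55 to 1.08, and no imprinted island passed the moderated F test of limma over tissues (0 of 37 at adjusted p under 0.05, 1 at unadjusted p under 0.05). Over all islands 11 of 13659 passed, which is 0.0805%. On simulated data this test with 2 arrays per tissue recovered 13% of changes of 1 unit, so differences of that size could pass unseen. With the median-centred log2 ratio 17 of 37 islands had an unadjusted p under 0.05, and again none passed after adjustment. Igf2r island 2, the promoter of the gene for the receptor that clears insulin-like growth factor II, had the widest span of tissue means at 1.42, with array values from 0.60 to 3.15.

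**Figure D1:**
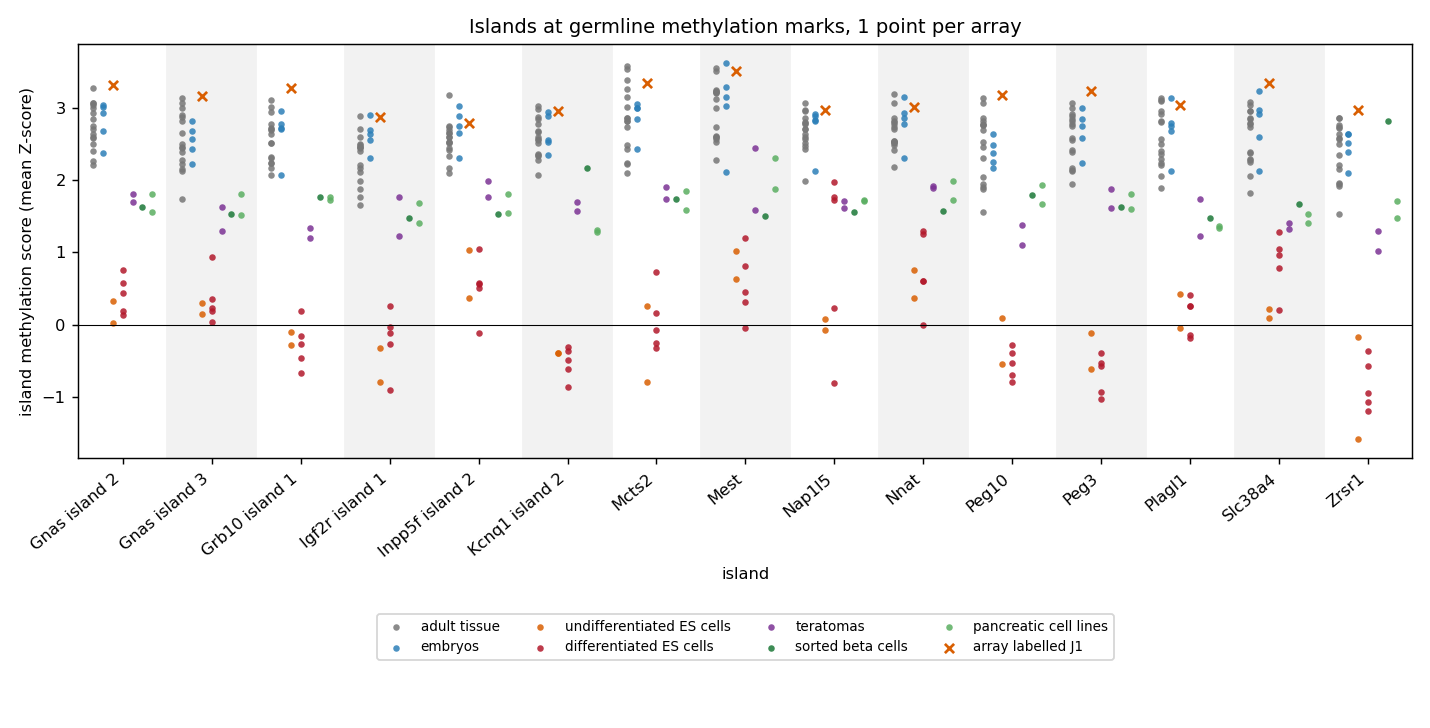
Island methylation score (mean Z-score, linear axis) at the 15 islands of germline marks, with 1 point per array and colours for the classes of sample. Adult and embryo arrays sit between 1.53 and 3.62, EB5, TT2 and the 5 differentiated ES-cell arrays sit between -1.59 and 1.97, and the array labelled J1 sits between 2.79 and 3.50.

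In differentiated ES cells the germline marks scored lower than in adult tissue. The undifferentiated lines EB5 and TT2 were low as well, with germline medians of 0.09 and -0.08, and the array labelled J1 was high at 3.16. Below, fell and rose mean lower and higher than in adult tissue, and do not describe a change on differentiation. All 15 germline islands were lower than in adult tissue, with differences of -3.27 to -1.70, a median of -2.46 and adjusted p of 0.00058 or less (limma, 5 against 16 arrays). Over all 37 islands 23 were called, 19 lower and 4 higher, beside 23.0% of all islands called, 8.54% lower and 14.4% higher. The split was 19 lower and 1 higher with standardisation by median and MAD, and 17 lower and 1 higher with normexp. At every germline island all 5 differentiated arrays lay below all 16 adult arrays, and the same held for 17 of the 37 imprinted islands and for 0.901% of all islands.

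Other islands methylated in adult tissue moved in the same direction, with a smaller median. A set of 995 other islands, also above 0.75 on every adult array and chosen on those arrays, had a median difference of -0.44, with 410 of them called lower (41.2%) and 67 with no overlap (6.73%). On each differentiated array the median of the germline islands lay between -0.18 and 0.26, where on the adult arrays it lay between 2.13 and 3.11. The median of the 995 islands went from 2.38 to 2.93 on adult arrays to 1.85 to 2.61 on differentiated arrays. No test was made of the set against the germline islands.

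Several of the germline marks lie at the start of a paternally expressed protein-coding gene. Peg3 encodes a zinc finger protein that acts on maternal behaviour and growth, and its island at chr7:6682111-6683212 (mm9, 9 probes) scored 1.95, 2.66 and 3.06 as the lowest, median and highest of the adult arrays. Embryoid bodies had -0.53, retinoic acid treated cells -1.03, endoderm -0.93 and -0.58, and mesoderm -0.39. Every one of these is below 0, and the score fell by 3.27 ± 0.32 (SE) with an adjusted p of 1.4e-08.

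Peg10, a gene derived from a retrotransposon and needed in the placenta, shares its island (chr6:4697308-4698444, 7 probes) with the neighbouring Sgce. Its adult scores ran from 1.55 through a median of 2.60 to 3.13, and its 5 differentiated scores were -0.70, -0.79, -0.29, -0.40 and -0.53 in the order embryoid bodies, retinoic acid, endoderm 1, endoderm 2 and mesoderm. Again no differentiated array reached 0. The difference was -3.01 ± 0.33 (adjusted p = 8.03e-08).

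Plagl1, which encodes a zinc finger regulator of a network of growth genes, had adult scores of 1.89 to 3.13 with a median of 2.54 at chr10:12810275-12811158 (7 probes). The differentiated arrays, in the same order, gave -0.18, -0.15, 0.26, 0.25 and 0.41. They are close to the array mean, and the fitted difference was -2.46 ± 0.28.

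Mest, a gene of mesoderm that encodes a hydrolase-like protein, scored 2.27 to 3.55 in adult tissue (median 3.06) at chr6:30688012-30688541 (6 probes). Its differentiated scores of 0.81, 1.20, 0.31, -0.05 and 0.45 had a mean of 0.54 ± 0.48 (SD, n = 5). Both TT2-labelled cultures lay above the EB5-derived ones here, a split that the fit did not use. The fitted difference was -2.40 ± 0.29.

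Slc38a4, an amino acid transporter with a role in placental supply, had 3 probes at chr15:96884810-96885274. It scored 1.82 to 3.08 (median 2.75) in adult tissue and 0.78, 0.20, 0.96, 1.05 and 1.28 in differentiated cells. All 5 of these values are above 0, and the difference of -1.74 ± 0.31 was among the smaller of the 15.

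Another group of marks lies at genes that sit inside an intron of a host gene. Zrsr1, a retrogene for a splicing factor within Commd1, scored 1.53 to 2.86 in adult tissue (median 2.53) and -0.95, -1.07, -1.19, -0.36 and -0.57 in differentiated cells (chr11:22872000-22873052, 9 probes). It fell by 3.22 ± 0.36. The promoter island of its host, Commd1, a regulator of copper balance and NF-κB, lies near it at chr11:22881881-22882487. Commd1 averaged -0.14 ± 0.33 (SD) over the 16 adult arrays and -0.23 ± 0.28 (SD) over the 5 differentiated arrays, a difference of -0.10 ± 0.15 that did not pass (adjusted p = 0.706).

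Mcts2, a retrogene inside H13, had adult scores of 2.09 to 3.57 (median 2.83) and differentiated scores of -0.33, -0.08, 0.72, 0.16 and -0.26 (chr2:152512463-152513054, 5 probes). Its difference was -2.80 ± 0.35. Nnat, a membrane proteolipid gene inside Blcap that is active in brain and endocrine cells, had 2.18 to 3.19 in adult tissue (median 2.62) and 0.00, 0.60, 1.30, 1.25 and 0.60 in differentiated cells (chr2:157385700-157386395, 7 probes). Both arrays of endoderm were the highest of its 5 values, and the difference was -1.91 ± 0.25.

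Nap1l5, a nucleosome assembly gene inside Herc3, had the most uneven values among differentiated cells. In adult tissue it scored 1.99 to 3.06 (median 2.70) at chr6:58856617-58857246 (5 probes). Embryoid bodies scored 0.23 and retinoic acid treated cells -0.81, whereas endoderm scored 1.77 and 1.97 and mesoderm 1.72. The EB5-derived cultures thus came near the lowest adult array without reaching it, and the island fell by 1.70 ± 0.35 (adjusted p = 0.00058).

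Inpp5f, a phosphoinositide phosphatase gene, had 1 island of each kind. Island 2, at an inner start that is the imprinted one (chr7:135831552-135832148, 6 probes), scored 2.09 to 3.17 in adult tissue and 0.56, -0.12, 0.58, 1.04 and 0.50 in differentiated cells, a fall with a difference of -2.04 ± 0.22. Island 1, at the main promoter (chr7:135754795-135755360, 4 probes), had -0.35 ± 0.24 (SD, n = 16) in adult tissue. Its differentiated arrays were split, with 0.61 and 0.86 in the TT2-labelled cultures and -1.11, -0.58 and -0.34 in the EB5-derived ones, and the difference of 0.24 ± 0.20 did not pass.

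In 4 clusters the germline mark lies at the promoter of a noncoding RNA or at an inner promoter. Kcnq1 island 2 (chr7:150481208-150482535, 8 probes), in the potassium channel gene, is where the silencing RNA Kcnq1ot1 starts. It scored 2.07 to 3.02 in adult tissue (median 2.58) and -0.49, -0.61, -0.31, -0.37 and -0.86 in differentiated cells. It fell by 3.12 ± 0.29, with the smallest adjusted p of the 15 (4.9e-09).

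Igf2r island 1 (chr17:12934260-12935460, 10 probes), where the noncoding RNA Airn starts, had adult scores of 1.66 to 2.89 (median 2.42) and differentiated scores of -0.27, -0.90, 0.25, -0.12 and -0.04. The difference was -2.51 ± 0.31. Grb10 island 1 (chr11:11925467-11926345, 10 probes), an inner promoter of a gene that restrains insulin and growth factor signals, had 2.07 to 3.11 in adult tissue and -0.47, -0.67, 0.18, -0.27 and -0.16 in differentiated cells, with a difference of -2.83 ± 0.31. Grb10 islands 2 and 3, in the outer part of the same gene, did not pass, with differences of 0.09 ± 0.12 and 0.32 ± 0.17. In endoderm 1 island 3 reached 1.32, where the other 4 differentiated arrays gave -0.22 to 0.47.

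Gnas, the gene for a G protein subunit, has several promoters marked in opposite ways and 4 islands on the array. Island 2 (chr2:174124027-174126550, 21 probes), at the antisense RNA Nespas and the start of the large protein form, fell by 2.32 ± 0.28, from 2.20 to 3.27 in adult tissue to 0.76, 0.13, 0.58, 0.43 and 0.19. Island 3 (chr2:174152721-174155044, 14 probes), at exon 1A, fell by 2.20 ± 0.29, to 0.94, 0.35, 0.04, 0.23 and 0.19. Island 4, the promoter of the main transcript (chr2:174155866-174156700, 6 probes), had a difference of -0.32 ± 0.14 that did not pass.

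Gnas island 1 (chr2:174110137-174111779, 10 probes) went another way. It is the Nesp promoter, whose later mark lies on the paternal copy, and it averaged 2.42 ± 0.26 (SD, n = 16) in adult tissue. Embryoid bodies scored 2.25, endoderm 2.09 and 2.29 and mesoderm 2.43, inside the adult range of 1.88 to 2.78, and retinoic acid treated cells scored 1.00. The difference of -0.41 ± 0.28 did not pass (adjusted p = 0.295).

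**Figure D2:**
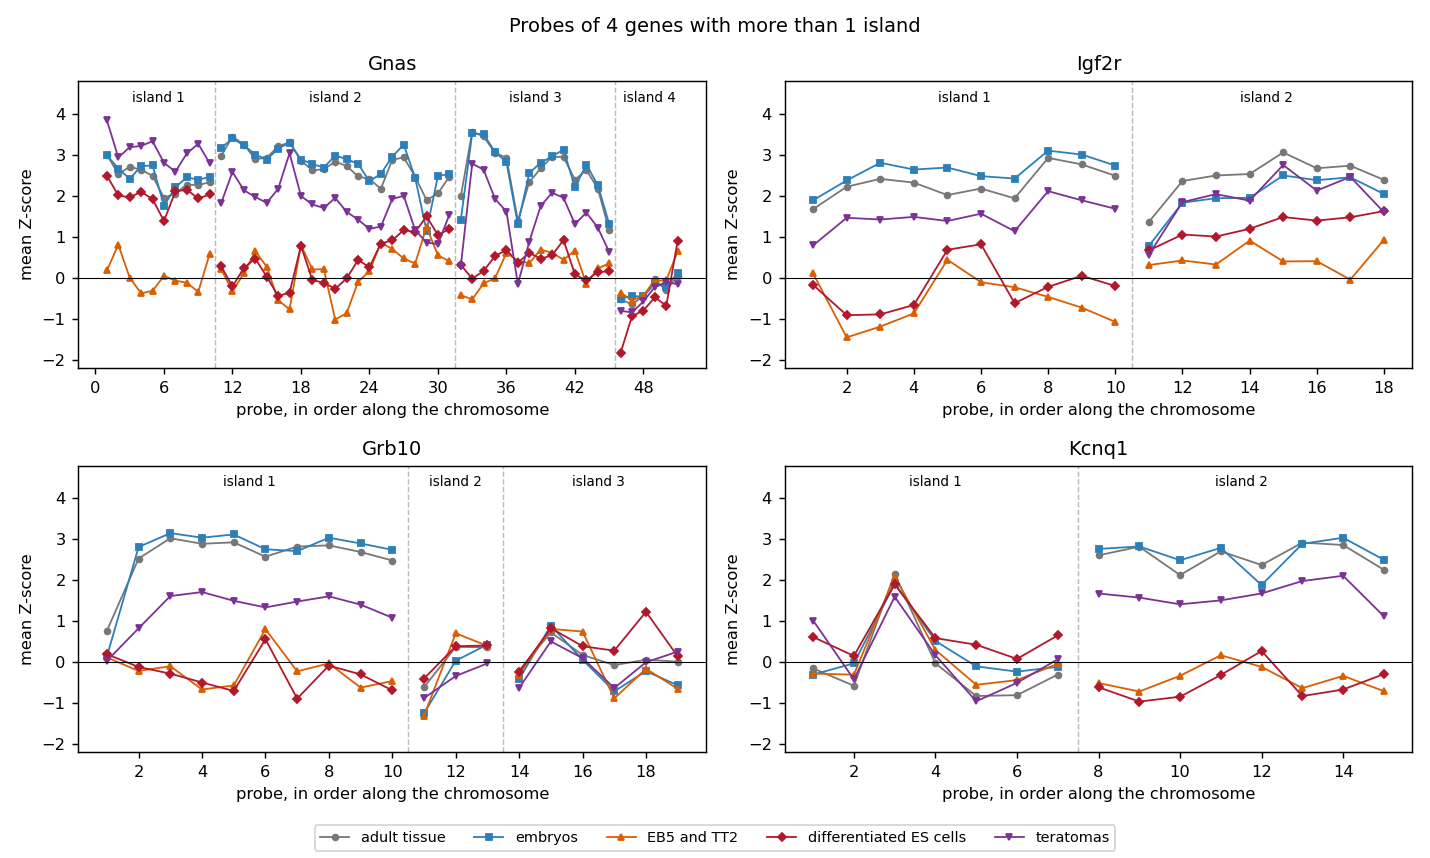
Mean Z-score of each probe (linear axis) in order along the chromosome for Gnas, Igf2r, Grb10 and Kcnq1, with lines for adult tissue, embryos, EB5 with TT2, differentiated ES cells and teratomas, and dashed lines between islands. In Gnas the line of differentiated cells is near the adult line in island 1, between -0.44 and 0.78 over the first 14 probes of island 2 and between 0.84 and 1.50 over its last 7, while in Kcnq1 island 2 it is below 0 at 7 of 8 probes.

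At the 7 later marks the outcome was mixed, with 4 lower in differentiated ES cells and 3 not called. Peg12, a gene related to a Wnt regulator in the Prader-Willi region, fell by 1.85 ± 0.25, from 1.10 to 2.59 in adult tissue to -0.12, -0.54, -0.12, 0.41 and 0.68 (chr7:69608562-69609381, 6 probes). Mkrn3 (chr7:69564503-69564999, 4 probes), a ring finger gene of the same region that restrains puberty, fell by 1.22 ± 0.19, from 0.69 to 1.88 in adult tissue to -0.08, -0.62, 0.58, 0.18 and 0.24. Ndn, the gene for necdin nearby (chr7:69493069-69493708), had scores of 0.01 to 1.65 in adult tissue and 0.21 to 0.99 in differentiated cells, with a difference of -0.12 ± 0.17. Snrpn, at the germline mark of that region, had no probe of its name.

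Cdkn1c, the cell-cycle inhibitor p57 controlled by the Kcnq1 mark, fell by 1.38 ± 0.24 at chr7:150644899-150647431 (15 probes). Its adult scores ran from 1.62 to 2.66, embryoid bodies at 1.91 were within that range, and the other 4 arrays gave 0.41, 0.31, 0.77 and 0.80. Igf2r island 2 (chr17:12961815-12962950, 8 probes) scored 1.80, 1.17, 0.73, 1.25 and 1.24, overlapping the adult values, and its call (difference -1.21 ± 0.36, adjusted p = 0.0155) was lost in 5 of 23 alternatives, such as without endoderm 1 (-1.08). Dlk1 island 2, in the later part of the gene for a Notch-related ligand (chr12:110697905-110698305, 4 probes), kept high scores of 1.99 to 3.03 in differentiated cells against 1.12 to 2.48 in adult tissue, a difference of 0.31 ± 0.15 that did not pass.

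Among the 15 other islands none was lower and 4 were higher in differentiated ES cells, beside 8.54% lower and 14.4% higher of all islands. Kcnq1 island 1, the channel's own promoter region (chr7:150292835-150293767, 7 probes), rose by 0.71 ± 0.12 (adjusted p = 9.09e-05), from -0.41 to 0.25 in adult tissue to 1.16, 0.22, 1.01, 0.13 and 0.65. The start of Dlk1 (island 1, chr12:110691154-110692158, 8 probes) rose by 0.53 ± 0.13 to 1.29, 0.75, 0.65, 0.73 and 1.10. Zim1, a zinc finger gene beside Peg3 (chr7:6648975-6649316, 4 probes), was 0.36 ± 0.11 higher, and Phlda2, a gene that restrains placental growth (chr7:150687585-150688863, 13 probes), 0.26 ± 0.096 higher. At all 4 the differentiated arrays overlapped the adult ones, and the calls of Dlk1 island 1, Zim1 and Phlda2 were lost in 3 of 22, 6 of 20 and 17 of 23 alternatives. With standardisation by median and MAD, normexp or the median-centred log2 ratio, 1 imprinted island was called higher. Without embryoid bodies Zim1 stood at 0.30 and no longer passed.

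The remaining 6 islands of Ppp1r9a, Ube3a, Igf2, Ascl2 and Rasgrf1 did not pass in any comparison. Rasgrf1 (chr9:89803449-89805957, 18 probes), an exchange factor gene of brain and growth, stayed between -0.37 and 0.08 in differentiated cells and between -0.34 and 0.18 in adult tissue. The islands of Igf2, the fetal growth factor, averaged -0.22 ± 0.19 and -0.10 ± 0.27 (SD, n = 16) in adult tissue and differed by -0.13 ± 0.093 and 0.09 ± 0.12.

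**Figure D3:**
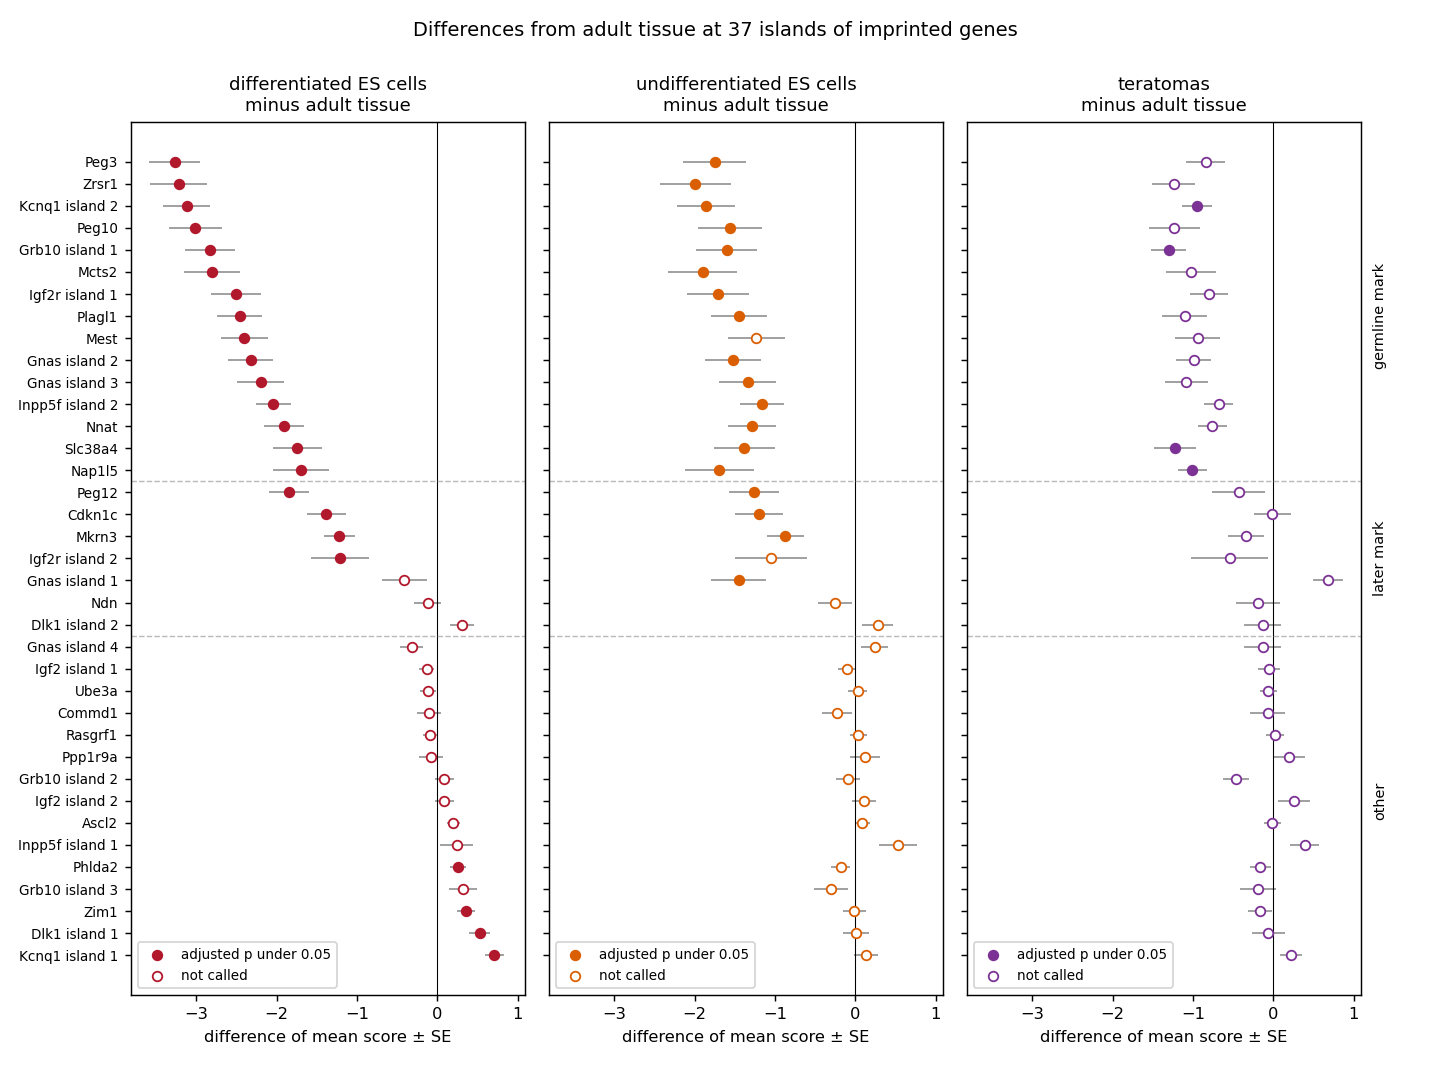
Difference of mean score from adult tissue with its SE (linear axis) at the 37 islands for differentiated ES cells, undifferentiated ES cells and teratomas, where filled points passed adjusted p under 0.05 in limma. All 15 germline islands lie left of 0 in each panel, between -3.27 and -1.70 in differentiated ES cells and between -1.30 and -0.68 in teratomas.

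The lower scores were also present within slides. On slides that held both kinds of array, the germline islands were lower at 15 of 15 in endoderm 2 than in pancreas 1 (median -2.71) and at 15 of 15 in embryoid bodies than in brain 2 (median -3.06). With slide as a block the estimate rests on these 2 pairs, and its median difference over the 15 was -3.00. With scan day it was -2.77, resting on the same 2 cultures, and with software version -2.28. All 15 were called lower each time, and endoderm 1 shared no slide, scan day or software version with another array. Of 127 probes in these islands, 2 had bound signal not well above background on every differentiated array, so those values are bounds. Of the 635 germline spots on differentiated arrays, 84.7% had bound signal well above background.

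In undifferentiated ES cells the germline marks were low in EB5 and TT2 and high on the array labelled J1. Their median was 0.09 in EB5, -0.08 in TT2 and 3.16 in J1, and all 15 germline islands in both EB5 and TT2 lay below every adult array. On the J1 array 7 of the 15 lay above every adult array, beside 5.83% of all islands and 16.7% of the 995 adult-methylated ones. A gap below the adult values in both EB5 and TT2 was present at 20 of the 37 imprinted islands (15 germline and 5 later marks), at 4.38% of all islands and at 34.1% of the 995 adult-methylated ones. With all 3 arrays, 18 islands were called, all lower, beside 2.34% of all islands called, 1.34% lower and 1.0% higher.

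Of those 18, 14 were germline islands and 4 later marks. Mest was the germline island that did not pass, with 0.63 in EB5, 3.50 in J1 and 1.02 in TT2 and a difference of -1.23 ± 0.36 (adjusted p = 0.0637). The result rests on which arrays enter. Without J1 20 islands were called, beside 1188 of all 13659 islands. All 15 germline islands were among the 20, with a germline median of -2.68 in place of -1.56. Without EB5 or without TT2 none was called, with 20 and 17 at unadjusted p under 0.05.

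Single islands show the same split. Kcnq1 island 2 scored -0.40 in EB5, -0.39 in TT2 and 2.96 in J1, and differed by -1.86 ± 0.36. Zrsr1 scored -0.17, -1.59 and 2.97 in the order EB5, TT2 and J1, and Grb10 island 1 scored -0.11, -0.28 and 3.27. On slides with both kinds of array, EB5 lay below pancreas 2 at 15 of 15 germline islands (median -2.77), and TT2 below the day 8.5 embryo at 15 of 15 (median -2.21).

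In the authors' processed table, 9 germline islands could be scored. There the J1 column had a median of 0.15 over them, with a range of -0.57 to 1.19, close to EB5 (-0.01) and TT2 (-0.05). The scanner values and the processed table thus disagree on J1 alone, and which of them holds the DNA of J1 cells was not tested.

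The later marks in undifferentiated cells followed the germline ones in part. Gnas island 1 scored -0.37 in EB5, 0.44 in TT2 and 2.84 in J1, and fell by 1.45 ± 0.34 (adjusted p = 0.0193), where in differentiated cells it had not passed. Peg12 (-0.05, 0.29 and 1.71), Cdkn1c (0.18, 0.56 and 2.31) and Mkrn3 (-0.06, -0.10 and 1.37) were also called lower. Igf2r island 2 had 0.40, 0.52 and 3.30 with a difference of -1.05 ± 0.45 that did not pass. Dlk1 island 2 was high on all 3 arrays, at 2.57, 2.07 and 2.42. None of the 15 other islands was called, and 1 had an unadjusted p under 0.05.

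Between differentiated and undifferentiated ES cells 1 island was called, a lower one, beside 5.41% of all islands called, 2.04% lower and 3.37% higher. Peg3 was lower by 1.53 ± 0.46 (adjusted p = 0.0469), and this rests on the array labelled J1: EB5 and TT2 had -0.12 and -0.61 where the 5 differentiated arrays had -1.03 to -0.39. Without J1 the germline median difference was 0.05 in place of -0.89. The number called was 5 without EB5, 9 without TT2, 6 without the retinoic acid array and 0 without endoderm 1 or mesoderm.

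At Gnas island 1 the difference between differentiated and undifferentiated cells was 1.04 ± 0.39, which did not pass (adjusted p = 0.12). Endoderm and mesoderm lay 2.45 to 2.80 above EB5 at this island, and the 2 cultures labelled TT2 lay 0.55 to 1.81 above TT2. At Nap1l5 the EB5-derived cultures lay 1.65 to 1.90 above EB5, while those labelled TT2 lay between -0.72 and 0.32 from TT2. The difference between the lines in this change was 1.95 ± 0.55 with an unadjusted p of 0.00726, and after adjustment 0 of 13659 islands passed with 7 arrays (422 at unadjusted p under 0.05).

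**Figure D4:**
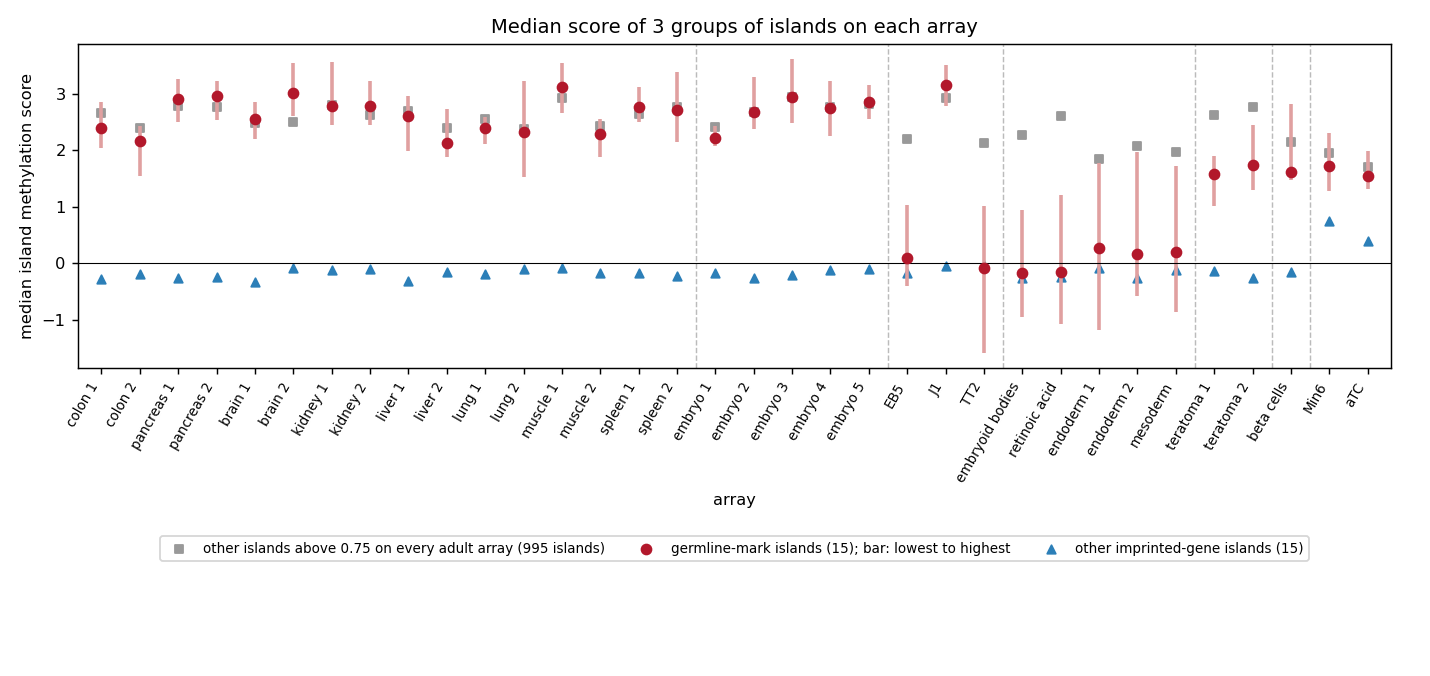
Median island score (linear axis) on each of the 34 arrays for the 15 germline islands (bars from lowest to highest island), the 15 other imprinted islands and the 995 other islands above 0.75 on every adult array. The germline median is 2.13 to 3.11 on adult arrays, -0.18 to 0.26 on differentiated arrays and 1.57 and 1.74 in teratomas, where the median of the 995 islands is 2.63 and 2.77.

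In embryos the germline marks did not differ from adult tissue beyond the spread between arrays in this fit. None of the 15 was called and none had an unadjusted p under 0.05, and their differences ran from -0.09 to 0.32 with SEs of 0.22 to 0.36. These SEs rest on a spread shared with the undifferentiated arrays, whose SDs at these islands were 1.25 to 2.33. The SDs were 0.18 to 0.56 in embryos and 0.25 to 0.48 in adult tissue. With adult tissue and embryos alone the median stayed at 0.09 and none of the 15 was called lower. Of all 37 islands 3 were called higher and 1 lower in that fit, beside 1257 of all 13659 islands called. The median of 0.09 turned to -0.21 with standardisation by median and MAD. With slide as a block it was -0.30, with scan day 1.49 and with software version 0.77, so it depends on how the batches are treated. No embryo shared a slide, scan day or software version with an adult array. These block values rest on the day 8.5 embryo, which shared them with ES-cell arrays. The difference between embryos and adult tissue thus cannot be separated from batch. Over the 5 embryos the germline median was 2.22 on day 8.5, 2.67 on day 9.5, 2.95 on day 10.5, 2.75 on day 11.5 and 2.86 on day 12.5.

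Of all 37 islands 2 were called in embryos, 1 higher and 1 lower, beside 7.61% of all islands called, 4.52% higher and 3.08% lower. With standardisation by median and MAD, or with the median-centred log2 ratio, 1 was higher and 2 were lower. Phlda2 was 0.54 ± 0.096 higher (adjusted p = 0.000452), with -0.02, 0.11, -0.12, -0.07 and 0.31 from day 8.5 to day 12.5, all above the highest adult array (-0.17). It was 1 of 37 imprinted islands with every embryo above every adult array, where 1.13% of all islands had that. Dlk1 island 1 was 0.48 ± 0.13 lower (adjusted p = 0.0202), with -0.11, -0.08, -0.10, -0.07 and -0.15 against -0.08 to 0.87 in adult tissue. Its call was lost without the embryo of day 8.5, of day 9.5 or of day 10.5, each of which left 1 island called. With slide, scan day or software version as a block only the day 8.5 embryo is linked to other classes.

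In teratomas the germline medians of 1.57 and 1.74 lay below those of adult tissue and above those of EB5, TT2 and the differentiated cultures, while the array labelled J1, the teratomas' labelled parent, had 3.16. At Nap1l5 the EB5-derived cultures (1.77, 1.97 and 1.72) lay above the teratomas (1.61 and 1.71). All 15 means were lower than in adult tissue, with an unadjusted p under 0.05 at each, differences of -1.30 to -0.68 and a median of -1.01, where the 995 other islands had a median of 0.13. At 13 of the 15 both teratomas lay below every adult array, which held for no other imprinted island and for 1.16% of all islands. The 4 called were Grb10 island 1, Slc38a4, Nap1l5 and Kcnq1 island 2, beside 0.315% of all islands called and 0.0586% lower, and none of the other 22 imprinted islands was.

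Grb10 island 1 had 1.19 and 1.34 in the teratomas and fell by 1.30 ± 0.22 (adjusted p = 0.00554). Nap1l5 had 1.61 and 1.71 with a difference of -1.01 ± 0.18, and Kcnq1 island 2 had 1.57 and 1.70 with -0.95 ± 0.19. Slc38a4 had 1.41 and 1.32, a fall of 1.22 ± 0.26. Without either teratoma none of the 37 was called, with 13 and 18 at unadjusted p under 0.05. The share of host cells in the teratomas was not measured, and its part in these scores was not tested.

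The later marks in teratomas did not pass. Gnas island 1 had 3.04 and 3.16, both above the highest adult array (2.78), a gap present at 1.79% of all islands, with a difference of 0.68 ± 0.19 and an adjusted p of 0.169, while Gnas islands 2 and 3 had 1.69 with 1.81 and 1.30 with 1.63. Cdkn1c had 2.03 and 2.38, a difference of -0.01 ± 0.23. Peg12 had 1.05 and 1.91, and the difference of -0.43 ± 0.33 did not pass.

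Single arrays of pancreatic cells have no replicate check and were not tested. In purified β cells the germline median was 1.62 and that of the 995 other islands 2.15, and in Min6 and aTC the medians were 1.72 with 1.95 and 1.55 with 1.71. Both sets of islands were thus lower than on adult arrays, and 10 of 15 germline islands lay below every adult array in both lines, beside 19.8% of all islands and 51.7% of the 995. In β cells Zrsr1 scored 2.82 and Kcnq1 island 2 scored 2.16, both inside their adult ranges. There 12 of the 15 were below every adult array, beside 9.79% of all islands and 39.5% of the 995.

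Many of the other islands were higher in the cell lines, and a few were lower. In both Min6 and aTC, 8 of the 15 other imprinted islands lay above every adult array, beside 12.3% of all islands, and their median was 0.75 and 0.40 where it was -0.33 to -0.08 on adult arrays. Zim1 (-0.32 and -0.16) and Gnas island 4 (-0.83 and -0.81) lay below every adult array in both lines, 2 of 15 beside 19.8% of all islands. Dlk1 island 1 scored 2.01 in Min6 and 1.62 in aTC, Grb10 island 3 scored 1.39 and 1.30, and Igf2 island 1 scored 1.23 and 0.68. Igf2 island 2 reached 2.19 in Min6 and 0.16 in aTC, the latter within the adult range of -0.73 to 0.29. In β cells these gave 0.85, 1.00, -0.16 and 0.22.

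Of the genes without an island, Impact, a translation regulator with a germline mark in its first intron, gave the same picture with 3 probes. Their mean was 2.32 to 3.88 in adult tissue (median 2.80), 2.24 to 3.17 in embryos and -0.92 to -0.48 on the 4 differentiated arrays with all 3 spots. EB5 and TT2 lay between -0.52 and -0.32 and J1 at 2.93, and both teratomas lay at 1.63 to 1.64. The single probe of Usp29, which shares its promoter with Peg3, had 1.37 to 3.22 in adult tissue and 1.55 to 3.18 in differentiated cells. It overlapped throughout, unlike the Peg3 island. That probe lies outside the Peg3 island, and its place relative to the shared promoter was not looked up. Neither gene was tested.

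The genes that keep imprints were looked at from a list of 18 regulators such as Zfp57, Trim28, the DNA methyltransferases and Tet enzymes, of which 13 had 14 islands. In differentiated cells 2 of the 14 were lower and none higher, in undifferentiated cells none passed (1 at unadjusted p under 0.05), in embryos 1 was higher, beside 4.52% of all islands, and in teratomas 1 was higher, beside 0.256%. Their median difference in differentiated cells was -0.06, beside -0.01 over all islands. Of 46 other genes in or beside imprinted clusters 22 had 29 islands, of which 5 were higher and 1 lower in differentiated cells, none passed in undifferentiated cells or embryos, and the median difference in differentiated cells was 0.05. These are 14.3% and 20.7% of the islands called in differentiated cells, beside 23.0% of all islands.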

How the data were processed

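Bound and input DNA of each sample were labelled with Cyanine-5 and Cyanine-3 and hybridised together to an Agilent CpG island array. The authors scanned the arrays with Agilent Feature Extraction, which subtracted background, normalised both dyes linearly and wrote a log10 ratio of bound over input per probe. The deposited files also hold both channels' intensity and flags. A table deposited by the authors holds a score per probe, made by turning log ratios into Z-scores according to probe melting temperature, with mean 0 and SD 1 on each array and different probes missing from each. It was used as an alternative, and no correction for melting temperature was made here.

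Here the log10 ratio of each of 88737 probes present on every array was standardised per array, leaving out spots marked as outliers. Positions were those of mm9, named in the headers of 6 files and held by 88411 probes. Runs of at least 3 probes with gaps of at most 500 bases made 13659 islands (median 5 probes, 657 bases), scored by the mean of their probes. Gene names were those of the files, matched with RefSeq synonyms.

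Classes were compared with limma 3.58.1 in R 4.3.3 on all islands, with 1 fit over the 4 classes of adult, embryo, undifferentiated and differentiated arrays, a fit of teratomas with adult tissue, and a moderated F test over 8 tissues. P-values were adjusted by Benjamini-Hochberg over all 13659 islands and called under 0.05. An island was counted as high above 0.75 or low below 0 on every adult array. On simulated data 200 islands changed by 1 unit were recovered at 91.5% (differentiated against adult), 88.5% (undifferentiated against adult), 95% (embryos), 81% (differentiated against undifferentiated) and 83% (teratomas). Input was well above background at 62.4% to 99.9% of probes per array, and the number of arrays limits the precision.

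All 40 genes are accounted for. Islands described one by one are those of genes with a known germline mark at or near them and those called in any test. The members, their sorting by mark, and the lists of regulators and neighbouring genes were chosen with earlier results of these data known. The 34 arrays lie on 23 slides, were scanned on 16 days and were read with 4 software versions.

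Alternatives were standardisation by median and MAD, a median-centred log2 ratio, the deposited table, a filter on dim probes, the median of probes, other gaps and probe minimums, leaving out X and Y, slide, scan day or software version as a block, the methods' t-test, 2 classes alone, other thresholds, the replicate number as a block and leaving out each array. The planned normexp correction on mean signals could not be run because 16 files hold median signals alone. Normexp with an offset of 50 on median signals, and the positions of the older files with all probes, were chosen after seeing the data. Replicate numbers of different tissues did not pair the arrays: over 28 pairs of tissues the correlation of deviations ran from -0.251 to 0.613, with 13 over 0.1. Tables were made in Python 3.11.15 (pandas 2.3.3, numpy 2.4.6). The figures and sequences use RefSeq on GRCm38.p6 for promoter windows alone, and no position was converted between builds.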

Additional observations from a re-analysis of the deposited data

Results flagged for a closer look

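Within groups of 4 to 10 arrays, an array was singled out where its gap to the nearest other array, as a share of the group's range, passed Dixon's 95% limit. This held in 5 of 74 groups tested, where chance gives about 1 in 20. In 4 of them the array was the embryo of day 8.5. It scored 2.07 at Grb10 island 1 where the other 4 embryos scored 2.70 to 2.95 (share 0.717), 2.10 at Gnas island 1 against 2.50 to 2.63 (0.75), 2.13 at Nap1l5 against 2.82 to 2.91 (0.881), and 1.91 at Cdkn1c against 2.55 to 2.69 (0.818). The same array had the lowest germline median of the embryos (2.22) and a median of 2.41 over the 995 other adult-methylated islands, where the other embryos had 2.68 or more, and it was the embryo array read with another software version. In the differentiated ES cells, retinoic acid treated cells scored 1.00 at Gnas island 1 where the other 4 arrays scored 2.09 to 2.43 (0.759).

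At 7 islands every EB5-derived culture moved from EB5 in 1 direction and both cultures labelled TT2 moved from TT2 in the other, which is 18.9% of the 37, beside 10.5% of all islands. The change in EB5 minus that in TT2 was 0.72 at Grb10 island 2, -1.12 at Zrsr1, -0.81 at Commd1, -1.09 at Dlk1 island 2, -0.66 at Gnas island 3, 0.73 at Ube3a and 0.31 at Ascl2. A limma test of the difference, which has 1 undifferentiated array per line, called none of these after adjustment over 13659 islands. The unadjusted p was 0.0492 at Zrsr1 and 0.0331 at Dlk1 island 2. The parent line of the retinoic acid treated cells is TT2 by the labels and a legend of the study and J1 by its methods, so the contrast holds for the labels.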

How the results depend on the processing

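The lower germline scores in differentiated ES cells kept their direction and their call at every germline island that could be scored in every alternative run, such as 9 of 9 in the deposited table and 11 of 11 with the filter on dim probes. Of 23 islands called there, 17 kept the call in every alternative, and over 508 island and alternative pairs 475 kept it, 33 lost it and 0 reversed. The total called was 12 of 20 in the deposited table and 21 to 24 when leaving out 1 array. For undifferentiated ES cells, 0 were called with median and MAD, normexp, median-centred log2 ratio or the methods' t-test. With scan day or software version as a block 0 were called, with the 2 classes alone 2, and 0 to 20 when leaving out 1 array. With slide as a block the comparison rests on EB5 against pancreas 2, 1 array each, with a germline median difference of -2.77. TT2 and J1 shared no slide with adult tissue. Of the 20 islands that the deposited table could score, 14 were called, 13 lower and 1 higher, beside 1535 of all 5849 islands called there. All 9 germline islands scored there were called lower, with a median difference of -2.5. There the J1 column lay close to EB5 and TT2 at the germline islands. For embryos, 0 were called with normexp, and 1 in the deposited table and with slide as a random block. The number was 4 with the methods' t-test and with the 2 classes alone, and 1 to 2 when leaving out 1 array. With slide, scan day or software version as a block only the day 8.5 embryo is linked to other classes, so no count is given. For differentiated against undifferentiated ES cells, 0 were called with median and MAD, normexp, at least 5 probes, X and Y left out, probes named for the genes alone, log2 ratio, the methods' t-test and the 2 classes alone, 2 in the deposited table, with the median of probes, software version as a block or slide as a random block, 3 with the older positions, 5 with the filter on dim probes, 6 with scan day as a block, and 0 to 9 when leaving out 1 array. For teratomas, 0 were called with median and MAD, normexp, log2 ratio or software version as a block, 2 with at least 5 probes and the methods' t-test, and 0 to 0 when leaving out 1 array. The cause of these changes was not tested. High islands in adult tissue numbered 9 with normexp, all of them germline, and 12 of 20 in the deposited table. Islands neither high nor low numbered 24 with normexp, 6 in the deposited table, 9 with the filter on dim probes and 8 with at least 5 probes, and low islands 1 and 8 at thresholds of -0.25 and 0.25 and 6 on the arrays of replicate 1 alone. The last 2 filters leave fewer islands.

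The replicate numbers did not meet the condition for pairing, with 13 of 28 correlations over 0.1. They go with a batch in 6 of 8 tissues, whose replicate 1 arrays share a probe grid and a scan day and whose replicate 2 arrays have another grid. With the replicate block, 0 islands were called over tissues and 4 in teratomas, as without it, and the block was not run for classes without shared numbers. Slide and scan day as blocks could not be fitted for teratomas and tissues, nor software version for tissues. With 3 arrays of undifferentiated cells, 1 of them apart, and 2 teratomas, small differences can pass unseen.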
